A study of Mus musculus with 4 samples.

Results

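Wide open domains were stretches of accessible chromatin of at least 1500 bp that were present in every ATAC-seq library of the series. They were found by merging all peaks of the 4 libraries that overlapped by 1 bp or more, and by keeping the merged regions on the 19 autosomes that were at least 1500 bp wide and held a peak from each library. This gave 2630 domains, which were 6.02% of the 43706 autosomal regions present in all 4 libraries (below, all shared regions) and 3.69% of the 71243 merged regions of the series. A further 51 domains on chromosome X met the width and were not included. The members were chosen by their merged width in these 4 libraries, so widths and covered bases are given as a description and carry no test.

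The cells were bone marrow-derived macrophages (BMDMs), grown for 6 to 8 days from the marrow of C57BL/6 mice aged 8 to 10 weeks, in medium conditioned by L929 cells, a source of the macrophage growth factor CSF1. Mice of both genotypes carried floxed alleles of H3f3a and H3f3b, the genes for histone H3.3 (H3f3a fl/fl, H3f3b fl/fl). The cKO mice were in addition LysM cre/cre, with Cre recombinase expressed from the Lyz2 locus in myeloid cells, and the WT mice lacked Cre. Each genotype had 2 libraries, which the labels call biological replicates, so any p-value measures the spread between these libraries only. Homozygous LysM-Cre interrupts Lyz2 itself, and at that gene the inserted allele and the loss of H3.3 cannot be told apart.

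ATAC-seq cuts DNA where nucleosomes and other proteins leave it exposed. Most open sites are short enhancers or promoters, while wide open domains form over CpG-rich promoters, over clustered enhancers and over the bodies of genes that are transcribed heavily. Histone H3.3 is the H3 variant that cells can deposit outside DNA replication. It is placed at active promoters, enhancers and transcribed gene bodies by the HIRA chaperone complex, where it replaces nucleosomes lost during transcription.

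For each domain and library, the number of bases covered by that library's peaks and the number of its peaks were taken. Peak strength was taken in 2 ways, each from the strongest peak of a library in the domain and each as a percentile among all peaks of that library's list. The area percentile comes from the area under the peak, which grows with the width of the peak. The summit percentile comes from the significance at the highest point of the peak, which does not sum over width. A domain was called different where both cKO values lay above, or both below, both WT values, and clearly different where in addition the gap between genotypes was larger than the larger difference within a genotype. With 2 against 2 libraries no permutation test can give a p below 0.333, so calls are counts and are set beside the percentage of all 43706 shared regions that met the same condition.

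The peak lists held 51955 to 64939 peaks, with replicate 2 the longer of each pair. Read depth is unknown, and a site just under the peak caller's limit in a library counts as not covered there. Of 10 macrophage markers, 9 had an open promoter in each of the 4 libraries, and the tenth, Spi1, the gene for PU.1, held 2 wide domains in its gene body. None of 5 T and NK cell markers and none of 5 fibroblast markers had an open promoter in any library. Open promoters were found for 2 or 3 of 5 neutrophil markers, 1 or 2 of 5 B cell markers and 1 of 5 erythroid and megakaryocyte markers (Pf4). The counts were alike in both genotypes, but the neutrophil markers behind them were not the same. Ly6g was open in both cKO libraries and in neither WT library, while Camp was open in both WT libraries and in cKO replicate 2. The part of such cells in the results was not tested.

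To show what kind of DNA lies at the tops of these domains, 121 bp around the summit of the strongest peak are printed for 6 of them, read on the forward strand of the RefSeq assembly GRCm38.p6 (mm10), outside annotated exons. Capitals mark matches to AP-1 (TGACTCA or TGAGTCA), PU.1 (GAGGAAGT), RUNX (AACCACA), C/EBP (TTGCNNAA), SP/KLF (GGGCGG) and NFY (CCAAT) on either strand. The first 4 come from domains that were wider in cKO and the last 2 from domains that were narrower. They run from a window dense in macrophage factor motifs (Lgals3) and a CpG-rich promoter (Osbpl8), through sites past the 3′ ends of a macrophage receptor gene (Sirpa) and of the gene whose domain gained the most (Ctsd), to an intron of Glis3 and a site just past Lyz2.
Lgals3, chr14:47374556-47374676: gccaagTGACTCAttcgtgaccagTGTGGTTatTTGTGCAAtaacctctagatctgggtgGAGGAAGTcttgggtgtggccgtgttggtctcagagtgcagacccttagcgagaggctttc
Osbpl8, chr10:111164575-111164695: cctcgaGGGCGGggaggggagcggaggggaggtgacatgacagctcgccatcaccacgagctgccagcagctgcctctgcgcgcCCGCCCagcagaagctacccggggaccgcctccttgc
Sirpa, chr2:129633512-129633632: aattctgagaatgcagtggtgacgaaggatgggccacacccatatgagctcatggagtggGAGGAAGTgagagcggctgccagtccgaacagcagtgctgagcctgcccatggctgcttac
Ctsd, chr7:142374720-142374840: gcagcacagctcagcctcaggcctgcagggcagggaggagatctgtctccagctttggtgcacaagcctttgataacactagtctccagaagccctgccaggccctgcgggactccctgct
Glis3, chr19:28677497-28677617: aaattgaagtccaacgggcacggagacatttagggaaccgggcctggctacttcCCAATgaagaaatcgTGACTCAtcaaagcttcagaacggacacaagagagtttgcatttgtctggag
Lyz2, chr10:117276018-117276138: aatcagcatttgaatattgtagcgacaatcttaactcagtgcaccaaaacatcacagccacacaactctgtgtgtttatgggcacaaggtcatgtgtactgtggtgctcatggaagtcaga
The Lgals3 window held a match to AP-1, RUNX, C/EBP and PU.1, and the Osbpl8 window held the SP/KLF motif on both strands. No motif of the set matched in the printed Ctsd and Lyz2 windows, which says only that these letters are not in those 121 bp.

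Most wide domains lay at gene starts. The median width was 1804 bp, with quartiles of 1614 and 2098.75 bp, against a median of 590 bp over all shared regions. Only 121 domains reached 3000 bp and 19 reached 5000 bp. Together they spanned 5.22 Mb, which was 16.7% of the 31.3 Mb of all shared regions. A gene start means here the start of any annotated transcript of a protein-coding gene, internal ones included. Such a start lay in 2010 domains that did not also hold a 3′ end (76.4%), and another 52 domains held both a start and a 3′ end. By the centre of the domain, 52.7% (Wilson 95% interval 50.8% to 54.6%, n = 2630) were promoters, against 20.1% of all shared regions. A promoter means here that the centre fell between 1 kb before and 100 bp after a transcript start of a gene of any type. Introns held 24.2% of domain centres against 44.5% of shared regions, and intergenic DNA held 7.34% against 28.0%.

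The sequence under the summits was that of CpG-rich promoters. In the 201 bp around the summit, the median GC content was 63.2% and the median ratio of observed to expected CpG was 0.790, and 68.9% of domains had a ratio above 0.6. Over all shared regions the same values were 50.2%, 0.279 and 22.8%. Domains with no gene start were closer to the other open sites, at 52.2% GC and a ratio of 0.295, against 48.3% and 0.217 for shared regions with no start.

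Motif matches followed the same division. The SP/KLF motif, which is bound by the general promoter factors SP1 and the KLFs, was found in 56.1% of domain windows and 19.6% of all shared windows of the same 201 bp. For the NFY motif these shares were 33.6% and 24.3%. Motifs of macrophage enhancer factors were rarer in the wide domains. PU.1 matched in 4.79% of domain windows against 11.2% of shared windows, AP-1 in 6.16% against 14.3%, C/EBP in 7.68% against 12.04% and RUNX in 3.57% against 8.21%. In the 568 domains with no gene start the shares were 10.6% for PU.1 and 16.5% for AP-1, against 13.5% and 17.5% in shared regions with no start. ETS (CCGGAAGT) matched in 3.95% of domain windows and 2.40% of shared windows, and the E-box (CACGTG) in 7.22% and 5.28%. By name, NF-kB matched in 7.49% against 5.18%, the interferon response element in 2.85% against 4.01%, NRF1 in 1.14% against 0.451% and CTCF in 0.570% against 3.52%. Among regions at gene starts alone, ETS and NRF1 were rarer in the wide domains. ETS matched in 4.63% of domains at starts against 8.02% of shared regions at starts, and NRF1 in 1.39% against 1.72%. SP/KLF (66.3% against 61.9%), NFY (36.7% against 34.6%) and the E-box (8.51% against 8.34%) kept their direction there. Only 3 domains (0.114%) had more repeat-masked than unmasked bases, against 2.92% of all shared regions.

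The domains were mostly single blocks of open chromatin. In 1687 of them (64.1%) each of the 4 libraries had exactly 1 peak, and the largest number in a library was 6. In 1256 domains (47.8%) every library by itself covered at least 1500 bp. In 167 domains no library covered 1500 bp, so that the width came from chaining peaks of different libraries. At the edge of the rule, the 5 regions just too narrow, at 1499 bp, were nearest to Tnik, Tomm40, Gsk3a, Rab6a and Ppp2cb, and the 5 just wide enough, at 1500 bp, were nearest to Pla2g4a, Grn, Dad1, Polr2h and Sf1. Domains were spread over 2394 nearest genes, of which 194 had more than 1 domain and 30 had 3 or more. Apart from the Sfi1 and Hjurp loci described below, the largest cluster lay near Dhrs3, a retinal reductase gene, with 5 domains. Genes with 4 domains included Tet2, a DNA demethylase gene, and Csf1r, the gene for the CSF1 receptor.

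To ask whether loss of H3.3 changed how much DNA these domains cover, the covered bases were first summed over all domains. The sum was 4.48 and 4.74 Mb in the WT libraries and 4.52 and 4.81 Mb in the cKO libraries. The genotypes overlapped, and in both the replicate 2 library had the higher value. Scaled to the mean list length, the sums were 4.60 and 4.28 Mb in WT against 5.07 and 4.68 Mb in cKO, which did not overlap, with a difference of 0.43 Mb. The WT mean was 4.61 ± 0.184 Mb (SD, n = 2), the cKO mean was 4.66 ± 0.202 Mb (SD, n = 2), and the difference of 0.0560 Mb was smaller than the spread within genotypes. Between libraries of the same number, cKO exceeded WT by 0.0428 Mb (replicate 1) and by 0.0692 Mb (replicate 2). By comparison, the mean covered length was lower in cKO for complete lists (cKO minus WT -2.54 Mb) and over all shared regions (-1.32 Mb). The genotypes overlapped on both. Complete lists covered 31.0 and 35.2 Mb in WT against 28.4 and 32.7 Mb in cKO, and shared regions 27.2 and 28.6 Mb against 25.8 and 27.3 Mb. Of the covered bases of the autosomal peaks alone, wide domains made up 14.8% and 13.8% in the WT lists and 16.3% and 15.1% in the cKO lists, and on this share the genotypes did not overlap.

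Single domains differed in both directions. More bases were covered in cKO in 582 domains (22.1%), where this held for 16.3% of all shared regions. Fewer were covered in 685 domains (26.0%), against 37.1% of all shared regions. Clear differences were found for 233 wider domains (8.86%, against 5.99%) and 235 narrower ones (8.94%, against 16.0%). After scaling each library's covered bases to the mean list length, 904 domains (34.4%) had more and 225 (8.56%) had fewer, against 24.7% and 16.6% of all shared regions. The balance of the 2 directions therefore rests on whether list length is scaled. Leaving out 1 library compares 2 values with 1 and separates more domains. More covered bases were then found in 1106 domains without WT replicate 2 and 1128 without cKO replicate 1, and fewer in 1205 without WT replicate 1 and 1245 without cKO replicate 2.

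The clearly wider domains gained more than the clearly narrower ones lost. The 233 clearly wider domains gained a median of 373 bp (range 5 to 9506.5 bp) and 154 kb in all, while the 235 clearly narrower ones lost a median of 265 bp (range 17 to 2949 bp) and 81.8 kb in all. A gain over 1 kb was found in 36 domains and a loss over 1 kb in 8. At least 2-fold more bases were covered in 34, and at least 2-fold fewer in 12. Of the bases gained, 53.03% were intronic, 22.04% exonic and 24.9% outside genes, counting annotated genes of every type, noncoding ones included. The bases lost were divided much alike, with 58.3% intronic, 16.2% exonic and 25.5% outside genes.

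The number of peaks and the strength of peaks were compared next. More peaks were found in cKO in 69 domains (2.62%, against 0.329% of all shared regions) and fewer in 106 (4.03%, against 0.41%). These counts were 138 and 181 without WT replicate 1, 137 and 243 without cKO replicate 1, and for more peaks 178 without cKO replicate 2 and for fewer 232 without WT replicate 2. The area percentile was higher in cKO in 677 domains (25.7%, against 22.3%) and lower in 980 (37.3%, against 35.5%). Higher area was found in 1066 without WT replicate 2 and in 1083 without cKO replicate 1. The median area percentile over the domains was 96.1 and 97.0 in WT against 95.9 and 96.8 in cKO, and the difference of -0.198 percentile points was smaller than the spread within genotypes (two-sided exact permutation test, p = 0.667, with 0.333 the smallest possible).

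The summit percentile was higher in cKO in 948 domains (36.0%, against 24.7% of all shared regions) and lower in 642 (24.4%, against 35.5%). The clear calls were 495 higher (18.8%, against 11.1%) and 276 lower (10.5%, against 16.9%). Leaving out cKO replicate 1 gave 1481 higher and 675 lower domains, leaving out WT replicate 1 gave 1024 and 1035, and leaving out cKO replicate 2 gave 1000 and 1135. The median over the domains was 89.0 and 90.4 in WT against 89.4 and 91.2 in cKO, which overlapped (difference 0.584 percentile points, two-sided exact permutation test, p = 0.667). With 1 library left out, this difference ran from -0.321 to 1.49 points and so changed sign. Coverage and summit moved together in many domains. Of the 582 with more covered bases, 314 also had a higher summit and 62 a lower one, and of the 685 with fewer covered bases, 305 had a lower summit and 143 a higher one.

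The place of a domain on its gene separated these changes. This grouping was chosen after the values were seen, and it divides the domains by whether they hold a start or a 3′ end of a protein-coding gene, lie up to 5 kb past a 3′ end, lie within a gene, or lie outside genes. Of the 33 domains at a 3′ end, 25 covered more bases in cKO (75.8%, against 30.9% of shared regions at 3′ ends) and 3 covered fewer, with a median gain of 877 bp. Of the 52 domains up to 5 kb past a 3′ end, 31 covered more (59.6%, against 22.1%) and 6 fewer, with a median gain of 254 bp. In 18 of these 52 only cKO libraries covered 1500 bp, and in 5 only WT libraries, so the width rule itself favours a gain there. Of the 25 in which a library of each genotype did, 12 covered more and 2 fewer. Domains that held both a start and a 3′ end covered more in 20 of 52 cases (38.5%, against 24.3%) and fewer in 8.

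Domains at gene starts changed little in comparison. Of 2010, 357 covered more bases in cKO (17.8%, against 14.2% of shared regions at starts) and 534 fewer (26.6%, against 32.1%), and the median difference was -14.0 bp. Scaled to the mean list length, the start domains gave 607 with more (30.2%, against 21.6% of shared regions at starts) and 162 with fewer (8.06%, against 10.4%), and the 33 at 3′ ends gave 25 (75.8%, against 37.8%) and 2 (6.06%, against 15.2%). Within gene bodies 85 of 269 covered more (31.6%, against 16.3%) and 73 fewer (27.1%, against 38.9%), and outside genes 64 of 214 covered more (29.9%, against 16.9%) and 61 fewer (28.5%, against 39.0%). After scaling these became 112 and 36 within gene bodies (shared regions 25.1% and 18.9%) and 92 and 19 outside genes (shared regions 25.2% and 18.2%). The width rule can itself favour a direction: only cKO libraries covered 1500 bp in 10 of the 33 domains at 3′ ends and in 201 of the 2010 at starts, and only WT libraries in 0 and 298. Of the 22 domains at 3′ ends in which a library of each genotype covered 1500 bp, 15 covered more bases in cKO and 2 fewer. Within gene bodies only cKO libraries covered 1500 bp in 70 of 269 domains and only WT libraries in 48. For domains with both a start and a 3′ end these counts were 8 and 1 of 52. In bulk chromatin a larger share of cells with an open site and a wider opening in each cell cannot be told apart.

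**Figure D1:**
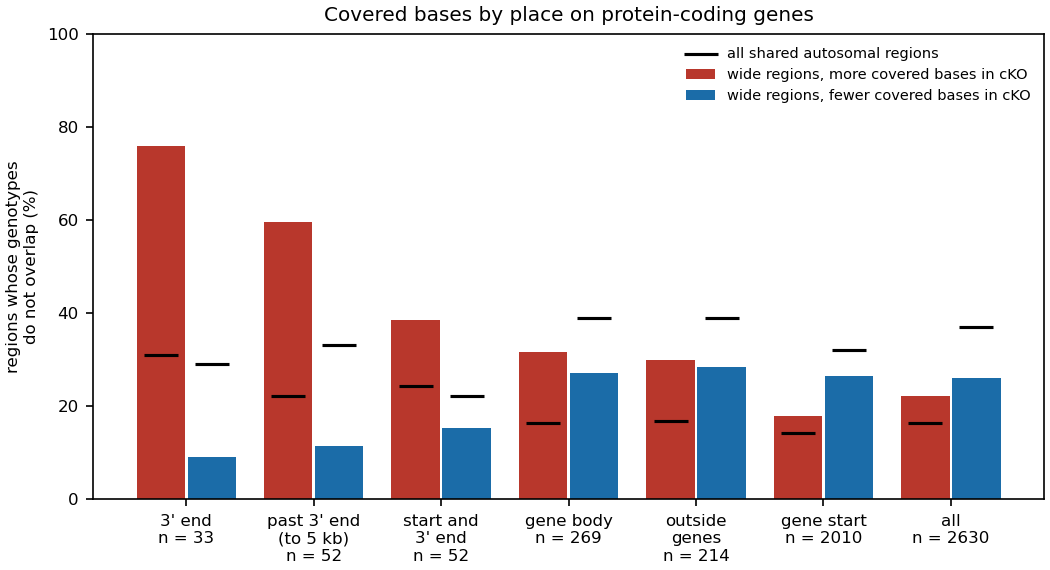
Percentage of wide domains whose covered bases were higher (red) or lower (blue) in both cKO libraries than in both WT libraries, by place on protein-coding genes, with n under each place. The y axis is in percent and black lines mark the same percentage over all shared autosomal regions of that place. At 3′ ends 75.8% of 33 domains were higher and at gene starts 17.8% of 2010.

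Around transcription start sites, neither side of the start led the change. In the 1748 domains that held starts of a single strand, the median length covered upstream of the start was 748 and 784 bp in WT against 743.5 and 771 bp in cKO. Downstream of the start it was 897.5 and 969 bp in WT against 873 and 942.5 bp in cKO. Both overlapped between genotypes and were higher in replicate 2. More bases were covered in cKO upstream of the start in 310 domains and downstream in 330, and fewer in 448 and 417.

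**Figure D2:**
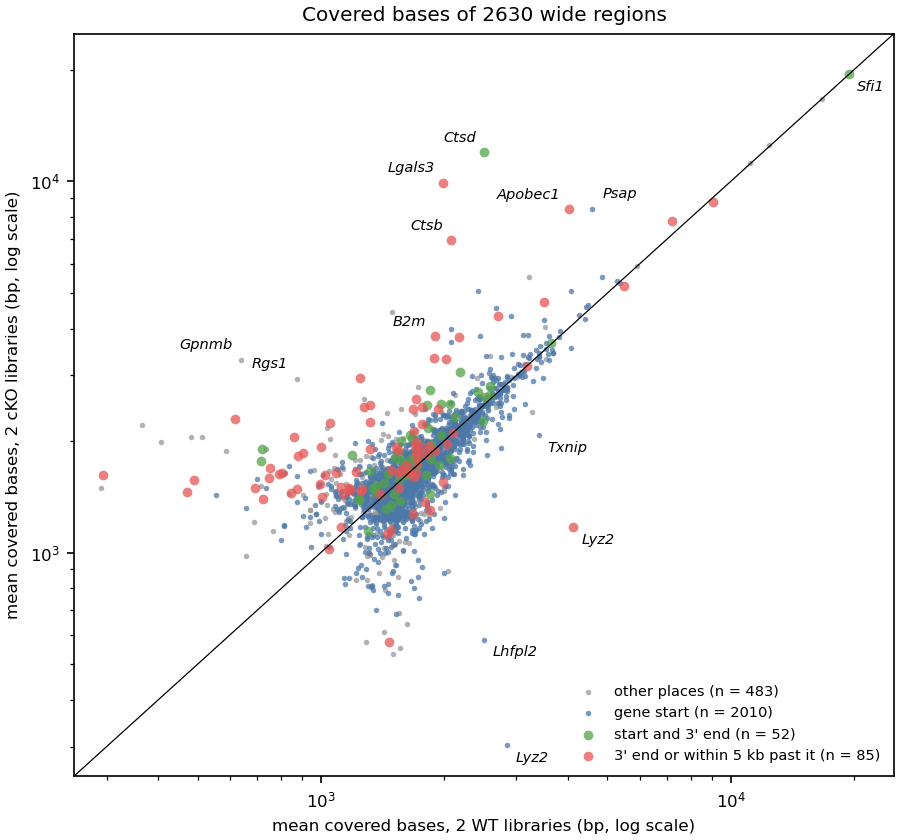
Mean covered bases of each of the 2630 wide domains in the 2 cKO libraries (y axis, bp, log scale) against the 2 WT libraries (x axis, bp, log scale), coloured by place on the gene. The line marks equal values. Most domains at gene starts lie along it, while Ctsd, Lgals3, Ctsb, Apobec1 and Psap lie far above it and Lyz2 and Lhfpl2 far below.

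Of the 12 domains that widened most, 3 held a transcript start and no 3′ end (at Psap, Osbpl8 and Lgals3), and the others lay over gene bodies and 3′ ends. At Psap and Lgals3 the domain lay inside the gene, past its first start. The largest gain was over Ctsd (ENSMUSG00000007891.16), which encodes the lysosomal protease cathepsin D. The domain at chr7:142372512-142385146 runs over most of the gene and past its 3′ end to the start of Ifitm10, and the overlapping gene model Gm49369 starts within it. It covered 1810 and 3190 bp in WT and 11378 and 12635 bp in cKO. Both cKO values lay far above the higher WT value. Its summit percentile was 28.2 and 27.5 in WT against 54.9 and 59.98 in cKO.

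The second largest gain was over the 3′ end of Lgals3 (ENSMUSG00000050335.17), the gene for the sugar-binding protein galectin-3. The domain at chr14:47378435-47388628 covered 1762 and 2205 bp in WT and 9917 and 9947 bp in cKO. It was split into 3 and 2 peaks in WT, and in each cKO library it was 1 unbroken peak. The summit percentile was 13.5 and 26.8 in WT against 47.0 and 48.2 in cKO. A separate domain over the start of several Lgals3 transcripts (chr14:47373560-47378283), whose motif-rich intronic window is printed above, covered 1821 and 2343 bp in WT and 4211 and 3782 bp in cKO. On all these measures the genotypes did not overlap, but at the start domain the summit percentile did, at 71.4 and 79.5 in WT against 77.1 and 83.1 in cKO.

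Ctsb (ENSMUSG00000021939.8), which encodes cathepsin B, another lysosomal protease, had 3 wide domains that did not move together. The domain at its 3′ end (chr14:63139338-63146621) covered 1720 and 2438 bp in WT and 6801 and 7104 bp in cKO. A domain in the gene body (chr14:63126779-63132898) covered 3038 and 3405 bp in WT and 5010 and 6057 bp in cKO, with summit percentiles of 92.6 to 93.5 in all 4 libraries. At the start of the gene, by contrast, 2411 and 2344 bp were covered in WT and 2251 and 2263 bp in cKO. The start was thus narrower and the body and end were wider in the cKO libraries.

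A wider body and end were also found at Psap (ENSMUSG00000004207.14), the gene for prosaposin, the precursor of proteins that help break down sphingolipids in lysosomes. A domain over an internal annotated start (chr10:60279430-60288193) covered 4187 and 4980 bp in WT and 8554 and 8313 bp in cKO. Its summit percentile went the other way, at 69.2 and 66.8 in WT against 58.7 and 57.7 in cKO, so the opening was longer but its highest point ranked lower. The 3′ end domain of Psap covered 726 and 850 bp in WT and 1569 and 1688 bp in cKO. A domain past the gene (chr10:60304391-60306376) covered 1755 and 1922 bp in WT and 1395 and 1126 bp in cKO, and was the only 1 of the 3 that was narrower.

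Apobec1 (ENSMUSG00000040613.14), which encodes an RNA-editing cytidine deaminase, held 2 of the 12 most widened domains. Its 3′ end domain (chr6:122575284-122584010) covered 3726 and 4322 bp in WT and 8252 and 8572 bp in cKO. Its gene body domain covered 1146 and 1840 bp in WT and 4241 and 4680 bp in cKO. Both were wider in both cKO libraries, while the summit percentile of the body domain was lower, at 71.1 and 74.8 in WT against 55.4 and 66.04 in cKO.

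The other domains among the 12 most widened lay at Gpnmb, Osbpl8, Rgs1 and B2m. Gpnmb encodes a glycoprotein of lysosome-rich macrophages, and a domain in its body (chr6:49058618-49062134, nearest start Malsu1) covered 459 and 816 bp in WT and 3379 and 3244 bp in cKO. Osbpl8, a lipid transfer protein gene, covered 2156 and 2671 bp in WT and 4587 and 5570 bp in cKO at its start. Rgs1, a regulator of G protein signalling, covered 694 and 1051 bp in WT and 2910 and 2968 bp in cKO in its body. The domain over the 3′ end of B2m, which encodes the light chain of MHC class I, covered 1970 and 1820 bp in WT and 3631 and 4035 bp in cKO. In each of these the lower cKO value was above the higher WT value, and at Rgs1 the summit percentile also rose from 71.2 and 72.6 (WT) to 89.4 and 88.5 (cKO).

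**Figure D3:**
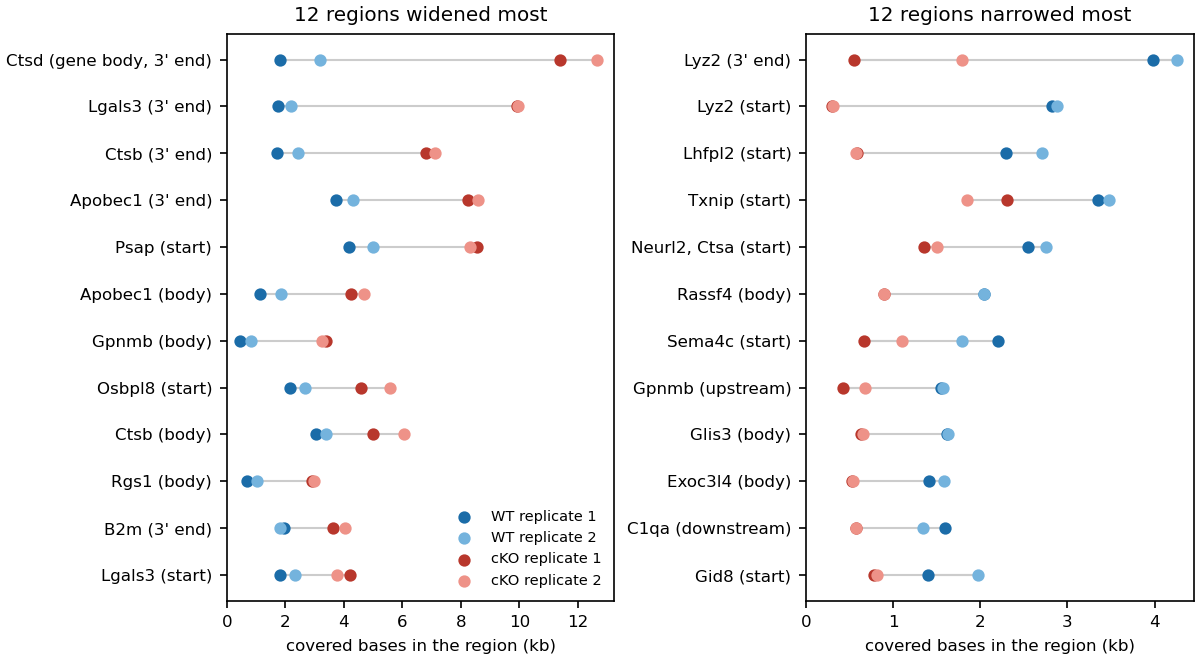
Covered bases (x axis, kb) in each library for the 12 domains that widened most (left) and the 12 that narrowed most (right) among clearly different ones, WT in blue and cKO in red, with a point for each library. The cKO points lie to the right of both WT points on the left panel and to the left of them on the right panel. Ctsd reaches 11378 and 12635 bp in cKO.

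Coverage over whole genes counted all peaks, inside and outside the wide domains, and in cKO it was high for some gene bodies. Peaks covered 19.3% and 23.7% of Psap in WT and 76.0% and 90.1% in cKO. Ctsd was covered to 13.5% and 28.0% in WT against 76.6% and 87.4% in cKO. For Ctsb the values were 26.3% and 31.6% in WT against 78.3% and 83.4% in cKO, and for Lgals3 16.2% and 18.8% in WT against 69.1% and 66.9% in cKO. Apobec1 went from 30.7% and 37.5% to 81.4% and 89.9%, and Rgs1 from 22.1% and 27.5% to 73.6% and 71.9%. All of these genes were named for their gain, so the percentages describe them and test nothing.

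At 2 of these genes the neighbour that ends at the same place did not share the gain. Dlgap5, whose 3′ end meets that of Lgals3, was covered to 4.79% and 6.26% in WT against 3.58% and 5.64% in cKO. Fdft1, whose 3′ end meets that of Ctsb, was covered to 7.94% and 10.8% in WT against 7.63% and 7.94% in cKO. For both neighbours the ranges of the genotypes overlapped or met. Coverage of the whole gene was not always part of the pattern, since B2m was covered to 25.7% and 26.0% in WT against 27.0% and 27.8% in cKO, and its gain lay past the 3′ end. In Osbpl8, which is 132498 bp long, coverage was 3.44% and 3.73% in WT against 23.3% and 34.6% in cKO.

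**Figure D4:**
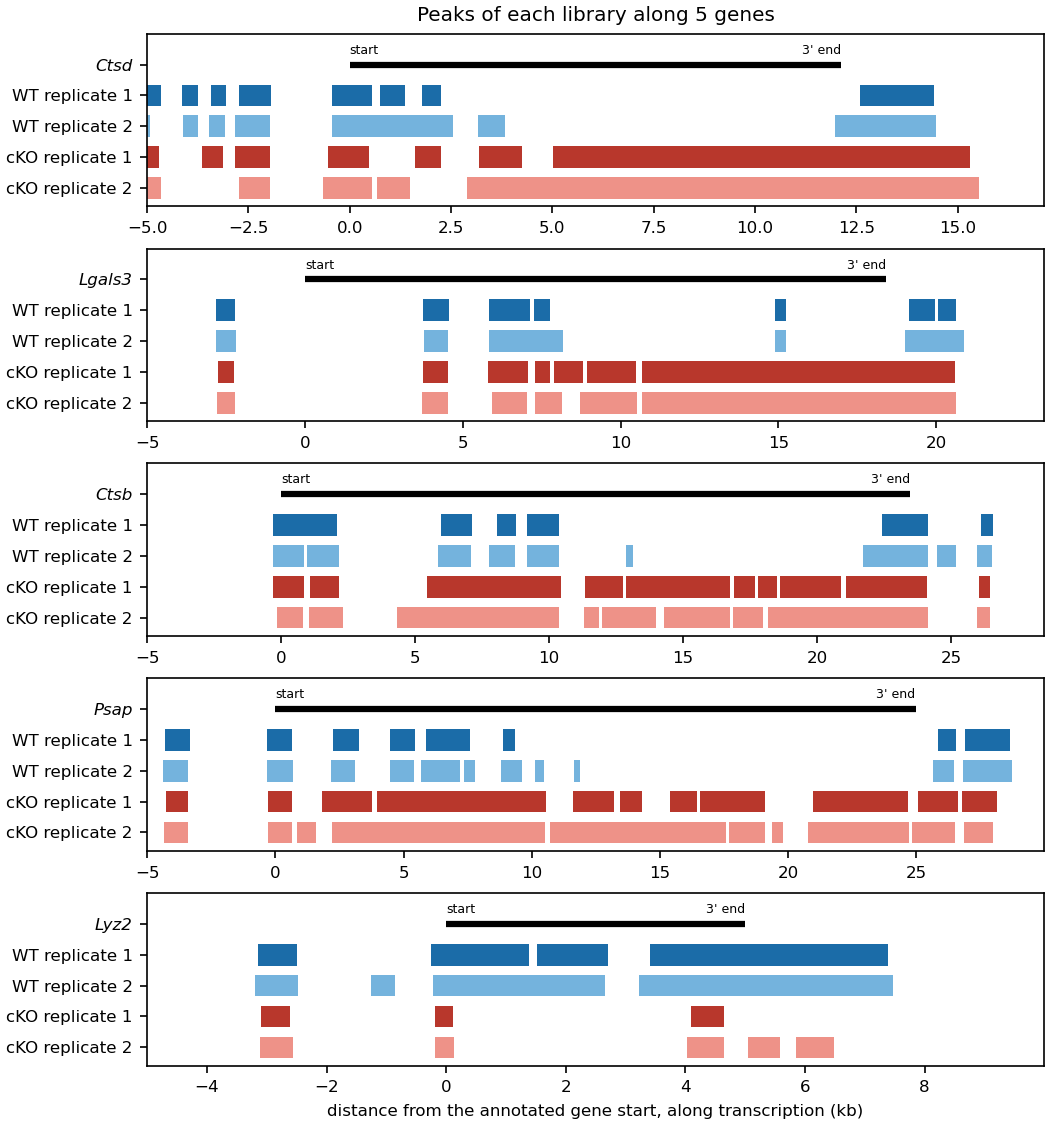
Peaks of each library (bars, WT in blue, cKO in red) along Ctsd, Lgals3, Ctsb, Psap and Lyz2, against the distance from the annotated gene start along transcription (x axis, kb), with the gene as a black line. In cKO the peaks of the first 4 genes join into long blocks that reach the 3′ end, and those of Lyz2 are short. Whole-gene coverage in Ctsd is 13.5% and 28.0% in WT against 76.6% and 87.4% in cKO.

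Further 3′ ends showed the same direction with smaller sizes. Fth1 and Ftl1 encode the heavy and light chains of the iron store ferritin. The Fth1 domain covered 2181 and 2173 bp in WT and 3737 and 3880 bp in cKO, and the Ftl1 domain 1720 and 1819 bp in WT and 2166 and 2278 bp in cKO. Actb, the gene for beta-actin, covered 1586 and 1833 bp in WT and 2604 and 2569 bp in cKO, with summit percentiles of 17.4 and 31.1 in WT against 62.1 and 58.5 in cKO. Both ferritin genes and Actb were wider in each cKO library than in either WT library.

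At the 3′ end of Sirpa, the receptor through which macrophages read the CD47 signal, 858 and 1628 bp were covered in WT and 2712 and 3185 bp in cKO. The 3′ end shared by Ppt1, a lysosomal thioesterase gene, and Cap1, an actin regulator gene, covered 874 and 886 bp in WT and 1813 and 1820 bp in cKO. The transcription factor gene Klf6 was also among them. At its 3′ end, Klf6 covered 1664 and 1687 bp in WT and 2569 and 2311 bp in cKO. Only Lyz2, Tgfbr2 and Lyl1 covered fewer bases in cKO at a 3′ end, and for Tgfbr2 the gap was small, with 1547 and 1560 bp in WT and 1463 and 1515 bp in cKO.

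Summits were compared over the same 3′ end domains, a grouping chosen after the values were seen. The summit percentile was higher in cKO in 20 of the 33 domains (60.6%, against 29.5% of shared regions at 3′ ends) and lower in 5 (15.2%, against 33.6%), and the median difference was 9.72 percentile points. In 10 of the 33 only cKO libraries covered 1500 bp and in 0 only WT libraries, while the shared regions passed no width rule. The summit counts are therefore no independent support for the gain in covered bases. Among all domains, 2 of the 6 largest rises were at 3′ ends. In the domain shared by the 3′ ends of Ctsz, which encodes cathepsin Z, and Nelfcd, a subunit of a pausing factor of RNA polymerase II, the summit percentile was 8.35 and 16.6 in WT against 57.5 and 61.4 in cKO. At the 3′ end of C3ar1, the receptor for complement C3a, it was 6.29 and 18.2 in WT against 59.1 and 58.0 in cKO. Both stood among the weaker peaks of the WT lists and above the middle of the cKO lists.

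The other 4 largest rises in summit lay within genes or at a start. In Hhat, the gene for the acyltransferase that modifies Hedgehog proteins, the domain at chr1:192744951-192746885 had a summit percentile of 1.03 and 9.40 in WT against 79.0 and 84.0 in cKO. Its covered bases were 544 and 632 in WT against 1809 and 1935 in cKO. Gm17359 rose from 0.234 and 4.70 (WT) to 54.4 and 59.7 (cKO), and Rgs2, a further G protein regulator gene, from 3.61 and 17.4 to 56.2 and 59.3. The domain over Rdh5, a retinol dehydrogenase gene, and Bloc1s1, a gene of lysosome-related organelles, rose from 0.774 and 5.56 to 46.3 and 60.2. In all 6 domains the summit was low in both WT libraries and lower in replicate 1 than in replicate 2.

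The domains that narrowed most were led by Lyz2 (ENSMUSG00000069516.8), which encodes lysozyme M and carries the Cre insertion in the cKO mice. The domain over its 3′ end (chr10:117274854-117279104) covered 3985 and 4251 bp in WT and 546 and 1792 bp in cKO. The domain over its start (chr10:117279621-117282581) covered 2823 and 2879 bp in WT and 296 and 309 bp in cKO. Peaks covered 83.2% and 88.7% of the gene in WT and 13.2% and 15.0% in cKO. The summit percentile of the 3′ end domain was 85.5 and 86.9 in WT against 19.5 and 46.2 in cKO. Lyz2 was thus the reverse of Ctsd and Psap, a gene open over nearly its whole length in WT only.

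Apart from Lyz2, most of the largest losses were at starts and within gene bodies. Lhfpl2, a tetraspan membrane protein gene, covered 2297 and 2703 bp in WT and 589 and 575 bp in cKO at an internal annotated start. Txnip, which encodes a thioredoxin-binding regulator of glucose uptake, covered 3350 and 3474 bp in WT and 2304 and 1843 bp in cKO. The domain at the start of Neurl2 and Ctsa, the latter the gene for the lysosomal protective protein cathepsin A, covered 2543 and 2750 bp in WT and 1348 and 1504 bp in cKO. A domain at the start of Ctsd (chr7:142385491-142388692) also covered fewer bases, with 2087 and 2990 bp in WT and 1644 and 2013 bp in cKO, and its summit percentile was clearly lower, at 91.2 and 93.4 in WT against 88.6 and 86.9 in cKO.

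Within gene bodies, Rassf4, a Ras association domain gene, covered 2047 and 2042 bp in WT and 890 and 898 bp in cKO. In Glis3, a zinc finger transcription factor gene, the domain whose window holds an AP-1 and an NFY match covered 1620 and 1631 bp in WT and 631 and 651 bp in cKO. Exoc3l4 covered 1414 and 1579 bp in WT and 524 and 539 bp in cKO, and its summit percentile was 64.5 and 71.3 in WT against 37.0 and 28.2 in cKO. The 2 libraries of a genotype were close to each other in all 3 domains and far from those of the other.

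The remaining large losses were at Sema4c, at C1qa, at Gid8 and upstream of Gpnmb. Sema4c, a semaphorin gene, covered 2199 and 1790 bp in WT and 661 and 1098 bp in cKO at its start. Just past C1qa, which encodes a chain of complement C1q and is made by macrophages, 1590 and 1337 bp were covered in WT and 574 and 572 bp in cKO. At the shared start of Gid8 and Dido1, 1403 and 1968 bp were covered in WT and 784 and 819 bp in cKO. A domain 23634 bp upstream of Gpnmb (chr6:49012198-49013764) covered 1549 and 1567 bp in WT and 430 and 676 bp in cKO, with summit percentiles of 85.3 and 86.6 in WT against 44.6 and 58.5 in cKO. The upstream domain of Gpnmb was therefore narrower where its gene body domain was wider.

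Large falls in summit occurred with and without a loss of covered bases. At Calhm6, a channel gene that interferons induce in macrophages, covered bases were 1465 and 1517 in WT against 1473 and 1596 in cKO, which overlapped, while the summit percentile was 68.7 and 69.9 in WT against 29.2 and 40.3 in cKO. At Zmynd8, which encodes a reader of acetylated histones, the summit percentile was 82.0 and 84.7 in WT against 52.6 and 56.9 in cKO, and covered bases were 1743 and 1858 in WT and 1061 and 1539 in cKO. Between Lyzl4 and Vipr1 it was 55.0 and 61.0 in WT against 12.9 and 30.8 in cKO, and covered bases were 1165 and 1564 in WT and 646 and 754 in cKO. Lyz2, Exoc3l4 and the domain upstream of Gpnmb made up the other 3 of the 6 largest falls.

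The widest domains included loci whose covered bases did not separate by genotype. At Sfi1, a gene for a centrosome protein on chromosome 11, 4 adjoining domains were 19447, 16702, 12591 and 11322 bp wide and ranked at the top of each list by area. The widest covered 19446 and 19440 bp in WT and 19413 and 19441 bp in cKO. The domain over the 3′ ends of Hjurp, the gene for the centromere histone chaperone, and Mroh2a was 9759 bp wide and covered 8581 and 9503 bp in WT and 8766 and 8849 bp in cKO, while its summit percentile was clearly higher in cKO, at 58.2 and 61.4 in WT against 72.6 and 75.6 in cKO. Sfi1 and Hjurp, each with 6 wide domains nearby, are loci known to vary in copy number among mouse genomes, and copy number was not measured here. Repeat-masked bases made up 28.9% to 49.3% of the 4 Sfi1 domains.

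The start of Neat1, a long noncoding RNA gene that builds nuclear paraspeckles, lay under another of the 12 widest domains (chr19:5838413-5847241, nearest protein-coding start Frmd8). It covered 7344 and 7036 bp in WT and 7329 and 8275 bp in cKO, which overlapped. The summit percentile was 87.0 and 88.2 in WT against 78.4 and 82.1 in cKO, lower in both cKO libraries. The remaining 6 of the 12 widest were the Ctsd, Lgals3, Psap and Apobec1 domains and the 2 at the body and end of Ctsb, all of them wider in cKO as given above.

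Domains near genes of 10 lists were then counted, with lists chosen with earlier results of these data known. Over all 2630 domains the median difference in covered bases was -5 bp and that in summit percentile was 0.231 points, and over all shared regions these were -20.5 bp and -1.11 points. The percentages to set beside the counts of every list are, for covered bases, 16.3% more and 37.1% fewer of all shared regions (22.1% and 26.0% of the domains) and, for summits, 24.7% higher and 35.5% lower (36.0% and 24.4% of the domains). Interferon-stimulated genes had 15 domains, of which 9 covered more bases in cKO and 1 fewer, 7 of the 9 clearly, with a median of 222 bp. In 4 of the 15, Ifi27 and Isg20 among them, only cKO libraries covered 1500 bp, so that the width rule itself favours a gain there, and of the 8 in which a library of each genotype did, 5 covered more and 0 fewer. Their summits were higher in 8 and lower in 2, with a median of 3.96 points. Genes of the NF-kB pathway and of inflammation stood at the other end for summits, higher in 1 and lower in 8 of 10 domains (median -5.84 points). Of these 10 domains, 1 covered more bases and 5 fewer (median -77.75 bp). The median of covered bases was lower still for sterol and lipid genes (-118.25 bp) and macrophage function genes (-82.5 bp). Only cKO libraries covered 1500 bp in 1 of these 10 and only WT libraries in 2. The same counts were 4 and 10 of 29 for macrophage function and 4 and 1 of 28 for macrophage transcription factors. They were 6 and 2 of 28 for AP-1 and 5 and 2 of 15 for the p53 response. For sterol and lipid genes they were 3 and 4 of 12, and for the cell cycle 2 and 2 of 13.

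Among interferon-stimulated genes, the largest gain was in Ifi27, which encodes a small mitochondrial protein, where 350 and 382 bp were covered in WT and 2096 and 2321 bp in cKO. Near Ly6e, a surface protein gene that limits virus entry, 1811 and 1635 bp were covered in WT and 2887 and 2705 bp in cKO. At the start of Irgm1, an interferon-induced GTPase gene, 1350 and 1567 bp were covered in WT and 1878 and 1958 bp in cKO. The starts of Socs1, a feedback inhibitor of interferon signalling, and of the nucleic acid sensor genes Ifih1 and Zbp1 were wider by smaller amounts. Ifih1, for example, covered 1574 and 1558 bp in WT and 1764 and 1807 bp in cKO. The domain nearest to Isg20 lay just past Aen, a p53 target gene, and covered 752 and 855 bp in WT and 1680 and 1601 bp in cKO. Gbp3, a guanylate-binding protein gene, was the 1 domain of the list with fewer covered bases, at 1495 and 1471 bp in WT and 1366 and 1457 bp in cKO.

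In the NF-kB list, Tnfaip2, a gene that tumour necrosis factor induces, covered 1712 and 1706 bp in WT and 1065 and 1237 bp in cKO at its start. Its summit percentile was 94.5 and 94.1 in WT against 71.3 and 75.7 in cKO. Nfkb1, which encodes the p50 subunit, covered 1616 and 1612 bp in WT and 1375 and 1455 bp in cKO at its start, while a domain in its body was the 1 of the list with more covered bases, by 205 bp in the mean. Nfkbia, the gene for the inhibitor of NF-kB, and Rel had summit percentiles of 92.5 and 92.9, and of 90.4 and 90.2, in WT, and of 82.7 and 88.2, and of 88.3 and 89.1, in cKO. Relb was the exception with a higher summit, at 95.8 and 95.3 in WT against 97.1 and 97.4 in cKO.

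**Figure D5:**
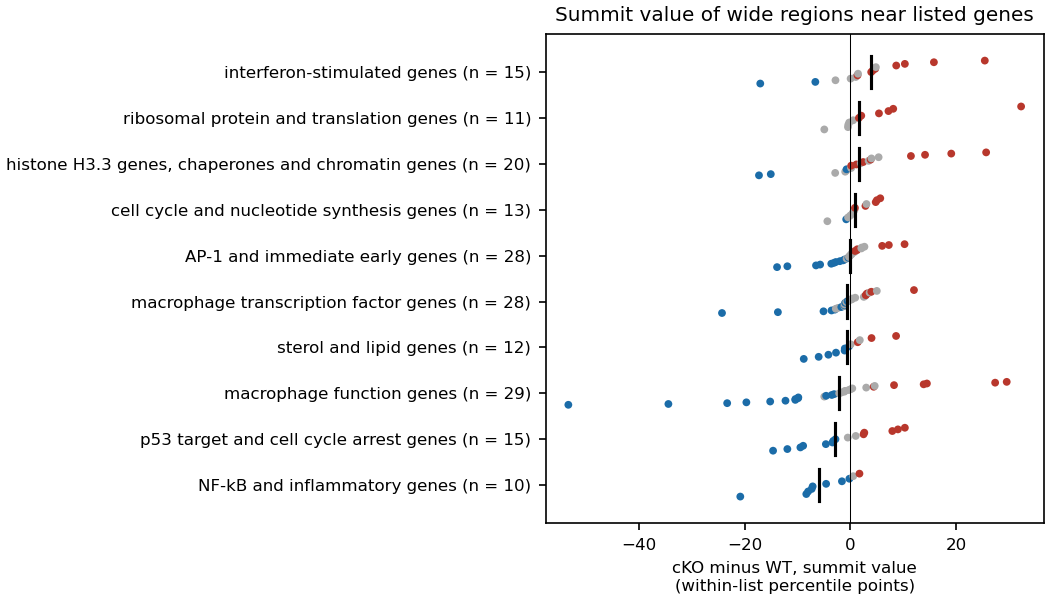
Difference in summit percentile (cKO mean minus WT mean, x axis, percentile points) for each wide domain near a gene of 10 lists. Red and blue points are domains higher or lower in both cKO libraries than in both WT libraries, grey points overlap, and the black bar is the list's median. The median is 3.96 for interferon-stimulated genes and -5.84 for NF-kB and inflammatory genes.

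The macrophage lists split. Macrophage function genes had 29 domains, of which 11 covered more bases in cKO and 13 fewer, against 16.3% and 37.1% of all shared regions, and 17 of these 24 differences were clear. They hold the large gains at Ctsd, Ctsb, Lgals3 and Psap and the losses at Lyz2 beside smaller ones. Abca1, the cholesterol efflux transporter gene, covered 1716 and 1742 bp in WT and 881 and 1027 bp in cKO at its start. Cd63, a lysosomal tetraspanin gene, covered 2741 and 2752 bp in WT and 2426 and 2346 bp in cKO. Csf2ra, a chain of the receptor for the growth factor GM-CSF, covered 2822 and 3023 bp in WT and 3377 and 3468 bp in cKO. Their summits were higher in 6 and lower in 13 (median -2.10 points).

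Macrophage transcription factor genes had few clear calls. Of 28 domains, 10 covered more bases in cKO and 2 fewer, but only 2 and 1 clearly, and the median was 51.5 bp. The clear gains included the 3′ end of Klf6 given above. The clear loss was at Bhlhe41, which covered 2037 and 2078 bp in WT and 1703 and 1714 bp in cKO. A domain in the body of Spi1 covered 3182 and 3055 bp in WT and 3138 and 3007 bp in cKO, which overlapped between genotypes.

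Genes of AP-1 and of the immediate early response had 8 domains with more and 4 with fewer covered bases of 28, with Myc at 2541 and 2527 bp in WT and 3264 and 3524 bp in cKO. Jun, a subunit of AP-1, covered between 4188 and 4368 bp in all 4 libraries. Genes of H3.3, its chaperones and chromatin had 4 with more and 5 with fewer of 20. Among these the clear gains were Brd2, a reader of acetylated histones (3566 and 3424 bp in WT, 4129 and 4323 bp in cKO), Kdm6b, a histone demethylase gene (994 and 1112 bp in WT, 2033 and 2020 bp in cKO), and Chd4, a remodeller gene (750 and 722 bp in WT, 1334 and 1657 bp in cKO). In 4 of the 20, Kdm6b and Chd4 among them, only cKO libraries covered 1500 bp, so the width rule itself favours a gain there. Only WT libraries did in 5. Hira, which encodes an H3.3 chaperone, covered 2180 and 2221 bp in WT and 2186 and 2226 bp in cKO at its start, and these overlapped.

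Ribosomal protein and translation genes had 5 domains with more and none with fewer covered bases of 11, against 16.3% and 37.1% of all shared regions, and summits higher in 6 and lower in none. In 6 of the 11 only cKO libraries covered 1500 bp. The clear gain was just past Rpl3, with 436 and 798 bp in WT and 2010 and 2558 bp in cKO. Sterol and lipid genes had 3 with more and 6 with fewer of 12. Acsl1, which activates long-chain fatty acids, covered 1797 and 1853 bp in WT and 1593 and 1579 bp in cKO. Insig2, an inhibitor of sterol synthesis, went the other way, at 1345 and 1287 bp in WT and 1562 and 1637 bp in cKO.

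Genes of the p53 response had 4 domains with more and 5 with fewer of 15. Bbc3, which encodes the cell death protein PUMA, covered 2150 and 2061 bp in WT and 2256 and 2300 bp in cKO in its body, and Plk2 covered 2105 and 2064 bp in WT and 1705 and 1857 bp in cKO. Genes of the cell cycle and of nucleotide synthesis had 3 with more and 2 with fewer of 13, none clearly. Cdk4 was 1 of the 2, at 1746 and 1953 bp in WT and 1294 and 1735 bp in cKO, though its summit percentile was higher, at 83.1 and 86.0 in WT against 89.9 and 88.8 in cKO.

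Replication-dependent histone genes, which are short and intronless, were found among the domains that held both a start and a 3′ end, and they were chosen after their values were seen. The domain over Hist1h4a and Hist1h3a covered 1809 and 1874 bp in WT and 2747 and 2745 bp in cKO. The domain over Hist1h2bj and Hist1h2ag covered 1720 and 1919 bp in WT and 2605 and 2391 bp in cKO. Hist1h1c, a linker histone gene, covered 1547 and 1598 bp in WT and 2032 and 1974 bp in cKO. All 3 were wider in both cKO libraries.

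The genes that the study deleted or displayed were examined last. The promoter domain of H3f3a (chr1:180812969-180814512) covered 1319 and 1542 bp in WT and 1258 and 1285 bp in cKO, lower in both cKO libraries by less than the spread within WT. Its area percentile was 96.0 and 97.2 in WT against 93.4 and 94.1 in cKO. No wide domain was found at H3f3b. The paper floxed all exons of that gene for deletion, and a domain needed a peak in each library, so this absence says little. A domain just past Lpin1, which encodes a phosphatidate phosphatase, covered 1293 and 1146 bp in WT and 1568 and 1730 bp in cKO, with summit percentiles of 79.0 and 81.7 in WT against 88.1 and 89.9 in cKO. The start of Mki67, the gene for the proliferation marker Ki67, covered 1681 and 1892 bp in WT and 1700 and 1352 bp in cKO, which overlapped. A domain 213170 bp from the start of Bcl2l11, the gene for the cell death protein BIM, and outside genes covered 1519 and 1443 bp in WT and 1279 and 1126 bp in cKO. The start of Sptssa covered 1336 and 1431 bp in WT and 1651 and 1506 bp in cKO, and a domain in the body of Cdkn1a, which encodes the cell cycle inhibitor p21, covered 990 and 1449 bp in WT and 820 and 862 bp in cKO. The Cdkn1a domain had higher area percentiles (78.9 and 77.0 in WT, 81.8 and 83.9 in cKO) and summit percentiles (74.5 and 75.8 in WT, 76.4 and 78.9 in cKO).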

How the data were processed

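Nuclei of 2 WT and 2 cKO BMDM cultures were tagmented and sequenced as paired ends. The authors aligned reads to mm10 with Bowtie2 2.5.1 and ran Genrich with default settings on every library by itself to call peaks. Read filters and any shift for Tn5 are not given in the sources used here. The deposited signal column is the area under the significance curve of a peak, with a lower limit of 200. The deposited −log10 p-value column is that of the summit, and the deposited score column, the area scaled to length and capped, was not used for values. Peak areas and summits grow with depth, so they were ranked within each list, while covered bases were taken as deposited. No count model fits peak lists, so calls rest on separation of the libraries.

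Merging and calls were made in Python 3.11.15 (pandas 2.3.3, numpy 2.4.6), and the merged regions were identical to those of bedtools 2.31.1. In lists simulated from a WT library, 100 of 100 widened and 100 of 100 narrowed regions were recovered. The edges of peaks there varied by far less than the width change put in, so recovery was nearly assured. It checks the code and not how often the spread between real libraries gives a call. Places on genes used protein-coding genes of the GENCODE M21 basic annotation, with the start of any annotated transcript taken as a start. Promoter, exon, intron and intergenic classes, and the parts of the bases gained, used its genes of every type. Sequences used pysam 0.24.0 and RefSeq GRCm38.p6, intervals and tests scipy 1.17.1. Coordinates are 1-based. Named genes are those of the 12 widest, 12 most widened and 12 most narrowed domains, the 6 largest rises and falls of the summit, the genes the study shows, and for each list up to 4 by width and the clear calls. A few named genes are not reported here. Genes at other 3′ ends and histone genes were chosen after their values were seen. The members, the 10 lists (398 entries) and the rule were chosen with earlier results of these data known. Alternatives were scaled covered bases, lists of equal length, peaks above the median area, other merging, widths and promoters, left-out libraries and a replicate block.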

Additional observations from a re-analysis of the deposited data

Results flagged for a closer look

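Wide regions outside the comparison above, because they lacked a peak in at least 1 library, were not evenly divided between genotypes. Of 72 such autosomal regions, 47 had peaks in each cKO library and in no WT library, and 0 in both WT libraries and in no cKO library, while the other 25 had other patterns. This was singled out as a signal in data that the comparison did not use, above the count in the WT controls. The difference was not tested, and a region without a peak may lie just under the caller's limit. The 47 regions are not 47 separate loci, since Osbpl8, Rasgef1b, Atp1b3 and Mx1 each held more than 1 of them. Those nearest to Cr2, Wls, Bicd1 and Fgf14 ended where the last peak of their chromosome ended. The widest of the 47 lay within Macrod2, which holds Flrt3, with 0 and 0 bp covered in WT and 6158 and 8388 bp in cKO. Over Plin2, the gene for a lipid droplet coat protein, 6022 and 6114 bp were covered in cKO. Over the 3′ end of Hmox1, which encodes the heme-degrading enzyme heme oxygenase 1, 3342 and 6418 bp were covered in cKO. Neither of these regions held a WT peak, and the rest of either gene was not examined for WT peaks.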

How the results depend on the processing

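Values that moved are grouped by alternative, and the cause was not tested unless the alternative itself gives it. With covered bases scaled to the mean list length, the summed difference was 0.43 Mb, and 904 domains had more and 225 fewer covered bases. With peaks above the median area of their list, 68 domains had fewer and 17 more peaks, 1 domain at a 3′ end covered fewer bases, and 6 wide regions were called in WT alone. With each library covering at least 50% of the domain, 10 at 3′ ends covered more. A width minimum of 2000 bp left fewer domains, 808, with fewer covered bases in 185 and more in 219, fewer peaks in 55 and more in 26, area higher in 222 and lower in 293, summit higher in 309 and lower in 178, 1 with fewer at 3′ ends and 29 wide cKO-only regions. The median area difference turned to 0.0928 there and to 0.0457 with lists of equal length. The promoter share was 84.9% with promoters of 2.5 kb on both sides and 78.4% for any start in the domain. Leaving out 1 library gave -0.679 to 0.283 for the median area and -0.321 to 1.49 for the median summit difference, -0.0871 to 0.199 Mb for the sum, 711 to 1128 domains with more and 815 to 1245 with fewer covered bases, 95 to 178 with more and 140 to 243 with fewer peaks, 734 to 1083 with higher and 1035 to 1450 with lower area, 1000 to 1481 with higher and 675 to 1135 with lower summit, and 25 to 28 with more and 3 to 6 with fewer at 3′ ends. The replicate numbers share no stated origin, and same-numbered deviations correlated at 0.0861 for covered bases and 0.417 for summits. With a replicate block, 804 domains had more and 905 fewer covered bases, and 25 and 4 at 3′ ends. Of 210 values of 30 named domains, 203 kept their sign. Most of these domains were named for a clear difference, and for those leaving out 1 library could not turn the sign.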

Other observations

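Several of the 47 wide regions called in both cKO libraries alone lay on genes whose shared domains had widened, and these genes were chosen after their values were seen. In the body of Psap, 3713 and 3949 bp were covered in cKO in a region with no WT peak, and in the body of Apobec1, 2854 and 3480 bp. On Osbpl8 the widest such region covered 2617 and 3005 bp in cKO. The interferon-induced antiviral gene Mx1 held a region with 2156 and 3818 bp covered in cKO. Regions of the same kind lay at the 3′ ends of Nrros (2612 and 2777 bp), a macrophage regulator of reactive oxygen species, of Crlf2 (2557 and 2984 bp), a cytokine receptor gene, and of Mdm2 (2441 and 2229 bp), the gene for the ligase that limits p53. In each of these regions both cKO libraries had at least 1 peak and both WT libraries had none.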
